A study of Mus musculus with 29 samples.

Results

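The genes described here were 38 genes of cell division, chosen by symbol: regulators of entry into the cycle, the enzymes that copy DNA, and the proteins of mitosis. Each symbol matched 1 Ensembl identifier, so the set comprised 38 of the 54532 identifiers in the count table, and all 38 passed the filter on low counts that left 15603 genes to test. They were followed in 29 polyA RNA-seq libraries of mouse liver. The mice were males with a conditional knock-in that replaces Prox1, a homeodomain regulator of hepatocyte identity, with a form that cannot be SUMOylated (K556R), or wild-type (WT) males. In hepatocytes the mutant was induced by Cre recombination at 8 weeks of age, and all mice then ate a 45% fat, 20% fructose diet for 18 weeks. Livers were taken fasted or refed at zeitgeber time 15 to 17 h (hours after lights on), so every library, controls included, comes from an animal on the obesogenic diet. There were 8 fasted WT libraries, 7 fasted K556R, 6 refed WT and 8 refed K556R. They came in 2 labelled batches, with 4, 4, 3 and 4 libraries of these groups in batch 1 and 4, 3, 3 and 4 in batch 2. The labels name neither the Cre driver, the route of induction, the strain, nor whether the WT mice also carried Cre, and counts per gene cannot tell the mutant Prox1 transcript from the normal one.

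As background, a cell entering division first raises D-type cyclins such as Ccnd1, which release E2F factors from the retinoblastoma family. E2F then drives cyclin E, the MCM2-7 helicase that licenses replication origins, and the enzymes that supply deoxynucleotides. Later, Foxm1 and MYB-MuvB complexes switch on the G2 and mitotic genes: cyclins A and B with Cdk1, spindle motors and checkpoint kinases, and the ubiquitin ligase partners that end mitosis. Adult hepatocytes are mostly quiescent, and Kupffer cells, lymphocytes, endothelial cells and cholangiocytes can also divide in liver. In whole liver, fewer cells of a type and less RNA per cell cannot be told apart.

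The promoters of these genes were read for the letters tied to early and late transcription in the cycle. RefSeq promoters (GRCm38.p6, 250 bases before to 50 after the start) were matched for 30 of the 38 genes. Ccnd1 and Mcm4, which are called below, were among the genes without one. In all, 3 kinds of letters were searched on both strands: the CCAAT box (CCAAT), the cell cycle homology region or CHR (TTTGAA or TTCGAA), and E2F-type sites (TTTCCCGC, TTTGGCGC, TTTCGCGC or TTTGCCGC). CCAAT was present in a promoter of 25 of the 30 genes (83.3%), against 42.3% of 11065 tested genes. Of all 32851 promoters, counted singly and not by gene, 37.4% held it. CHR letters were present in 17 of 30 (56.7%), against 16.9% of tested genes and 19.2% of all. E2F letters were present in 5 of 30 (16.7%), against 4.43% and 2.26%. By role, counted by gene, E2F letters occurred in 4 of 6 replication genes and in 1 of 5 mitotic entry genes. They occurred in no other role, including 0 of 2 G1 and S entry, 0 of 3 deoxynucleotide and 0 of 6 spindle and kinetochore genes. CHR letters occurred in 3 of 3 anaphase genes, in both Mki67 and Top2a, and in 4 of 5 mitotic entry genes. They also occurred in 4 of 6 spindle and kinetochore, 2 of 3 chromosomal passenger and cytokinesis, and 2 of 6 replication genes. In the G1 and S entry (0 of 2) and deoxynucleotide genes (0 of 3) they were absent. A match describes the letters of this window and is not evidence that a factor binds there. Of these, 5 promoters are shown, with matched letters in capitals, because their genes carry the results below or exemplify a class: Kif11, Mcm3, Mcm5 and Cdk1 are members whose changes are described below, and Ccnb2 is a G2 cyclin with several CCAAT and CHR matches.
Mcm3, chr1:20820263-20820562, minus strand: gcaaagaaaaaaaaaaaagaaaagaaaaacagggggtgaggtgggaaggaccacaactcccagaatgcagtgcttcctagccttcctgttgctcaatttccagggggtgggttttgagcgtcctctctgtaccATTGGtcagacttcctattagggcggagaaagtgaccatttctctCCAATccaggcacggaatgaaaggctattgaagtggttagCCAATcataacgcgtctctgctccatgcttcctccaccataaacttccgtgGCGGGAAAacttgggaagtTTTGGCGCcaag
Mcm5, chr8:75109259-75109558, plus strand: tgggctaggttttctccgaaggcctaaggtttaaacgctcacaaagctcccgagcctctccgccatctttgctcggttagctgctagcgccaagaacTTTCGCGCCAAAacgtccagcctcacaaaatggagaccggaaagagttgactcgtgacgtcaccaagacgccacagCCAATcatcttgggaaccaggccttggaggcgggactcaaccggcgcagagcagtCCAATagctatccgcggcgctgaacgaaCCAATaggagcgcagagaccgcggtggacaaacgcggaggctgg
Cdk1, chr10:69352863-69353162, minus strand: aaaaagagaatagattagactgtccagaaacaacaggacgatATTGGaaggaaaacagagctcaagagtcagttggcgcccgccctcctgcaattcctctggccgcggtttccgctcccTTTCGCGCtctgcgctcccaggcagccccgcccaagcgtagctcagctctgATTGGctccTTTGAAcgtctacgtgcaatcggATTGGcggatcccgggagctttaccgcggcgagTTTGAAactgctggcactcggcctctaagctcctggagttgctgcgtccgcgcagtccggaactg
Ccnb2, chr9:70421505-70421804, minus strand: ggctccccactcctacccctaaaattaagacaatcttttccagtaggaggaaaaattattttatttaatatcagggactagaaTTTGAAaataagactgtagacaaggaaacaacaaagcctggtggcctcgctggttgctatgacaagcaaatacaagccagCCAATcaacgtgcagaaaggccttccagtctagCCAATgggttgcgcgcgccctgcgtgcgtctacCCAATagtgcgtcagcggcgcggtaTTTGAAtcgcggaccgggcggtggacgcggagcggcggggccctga
Kif11, chr19:37376132-37376431, plus strand: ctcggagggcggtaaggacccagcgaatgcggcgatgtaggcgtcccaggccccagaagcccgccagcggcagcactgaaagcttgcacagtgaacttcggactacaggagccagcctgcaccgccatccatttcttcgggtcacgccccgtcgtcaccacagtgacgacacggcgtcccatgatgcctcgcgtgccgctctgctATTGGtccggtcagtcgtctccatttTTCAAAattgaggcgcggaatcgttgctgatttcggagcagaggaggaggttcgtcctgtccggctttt
Mcm3 and Mcm5 each carried E2F and CCAAT letters without CHR letters. Cdk1, transcribed late in the cycle, carried all 3 kinds. In Kif11 a reversed CCAAT lay 45 bases before the start and a reversed CHR 19 bases before it. The Mcm5 window had 2 overlapping E2F matches that read as 1 run of capitals.

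Levels of the set were low and graded by role. Levels between genes are given as CPM (a gene's counts scaled by the library's total) per kilobase of exon, averaged over the 29 libraries. The median member stood at 0.710, against 2.67 for all tested genes. Pcna, the sliding clamp of the replication fork, was highest at 13.1, followed by Ccnd1 at 6.64, Rrm2, the regulated subunit of ribonucleotide reductase, at 5.07, Mcm7 at 3.59 and Mcm6 at 2.83. The lowest were 3 genes of the kinetochore and its checkpoint, Cenpf at 0.0700, Bub1 at 0.123 and Cenpe at 0.126. The order depends on the length used, which joins all annotated exons of a gene. By CPM alone Bub1 (0.534) and Plk1 (0.956) were lowest. Rrm1 stood at 16.1 CPM but at 1.46 per kilobase. The replication genes had a median of 2.06, the G1 and S entry genes 1.50, the deoxynucleotide genes 1.46, the anaphase genes 0.988, Mki67 and Top2a together 0.614, the mitotic entry genes 0.577, the chromosomal passenger and cytokinesis genes 0.364, and the spindle genes 0.304. Together the members took 0.0118% to 0.0365% of the counts of a library, or 1873 to 8613 counts. A single mitotic gene therefore rested on few counts, for example 15 to 89 per library for Kif11 and 0 to 71 for Ccnb1.

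Libraries of the same group and batch varied more for these genes than for most. The standard deviation (SD) of log2 CPM within group and batch had a median of 0.50 over the members against 0.23 over all tested genes. The members also stood lower than all tested genes (median 0.710 against 2.67 CPM per kilobase). Genes of like level were not compared, so the wider spread is not shown to be a trait of the set. Pcna had 354 to 890 counts per library, while Cenpe and Ccnb1 each had as few as 0. Pcna (0.17), Tyms (0.19) and Mcm7 (0.21) varied least, and Cenpe (0.82) and Ccnb1 (0.79) most. Many members ranked the libraries of a group and batch alike, though not in every group. In batch 1, refed WT replicate 1 was the lowest of its 3 libraries for 35 of the 38 genes and replicate 2 the highest for 36. Fasted WT replicate 2 was the lowest of its 4 for 32. In batch 2, refed WT replicate 1 was the lowest of its 3 for 27 and fasted K556R replicate 2 for 26, while in batch 1 refed K556R replicate 4 was the lowest of its 4 for 22. Elsewhere the members split: in batch 1 fasted K556R, replicates 1 to 4 were the highest for 10, 5, 6 and 17. Shares over all tested genes were not computed for these counts, so they do not set the members apart. Library totals were 14385218 to 27278251 counts.

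**Figure D1:**
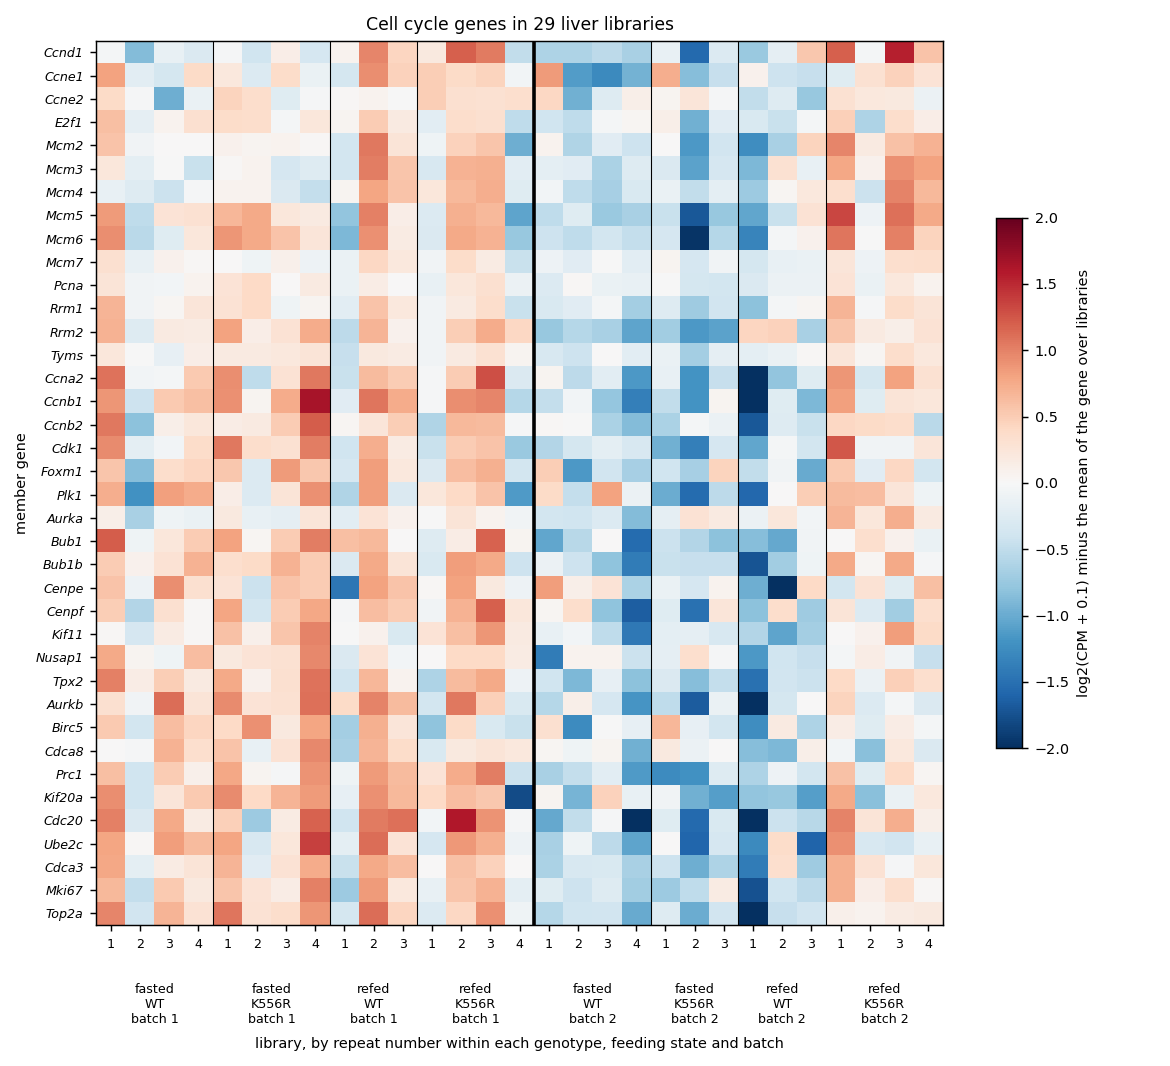
Each row is 1 of the 38 genes, in order of role, and each column 1 of the 29 libraries. Colour shows log2(CPM + 0.1) minus the gene's mean over the libraries, from -2 to 2, with colours saturated beyond. Whole columns differ, such as batch 2 refed WT replicate 1 (blue) and batch 1 refed WT replicate 2 (red), and batch 2 is bluer than batch 1 except in refed K556R.

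The mean log2 CPM of the 38 genes summarises each library. In batch 1 the 4 groups lay close together: fasted WT stood at 1.91 ± 0.37 (SD, n = 4), fasted K556R at 2.08 ± 0.24 (n = 4), refed WT at 1.95 ± 0.51 (n = 3) and refed K556R at 1.91 ± 0.46 (n = 4). In batch 2, fasted WT stood at 1.30 ± 0.23 (n = 4), fasted K556R at 1.25 ± 0.32 (n = 3) and refed WT at 1.15 ± 0.45 (n = 3), but refed K556R at 1.97 ± 0.24 (n = 4). The 4 refed K556R libraries of batch 2 ranged from 1.67 to 2.23 and the other 10 libraries of that batch from 0.64 to 1.47, so they did not overlap. In batch 1 the refed K556R libraries, 1.43 to 2.32, lay inside the range of the others.

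**Figure D2:**
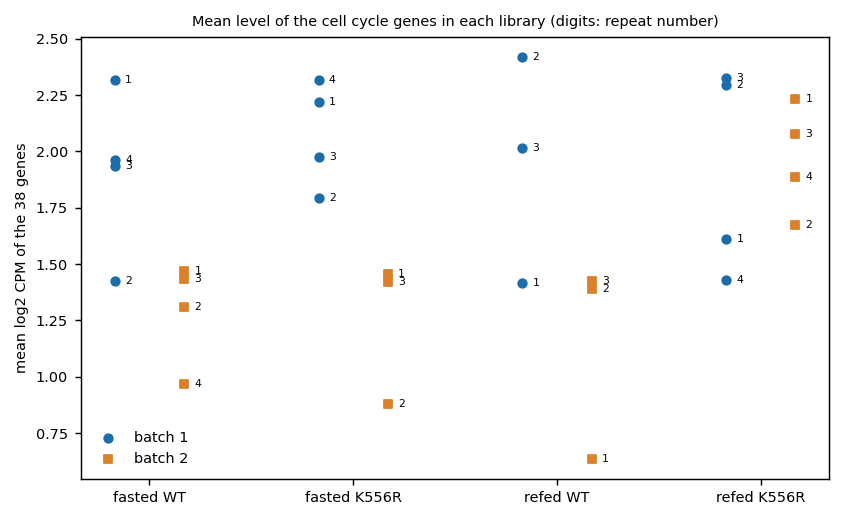
The vertical axis is the mean log2 CPM of the 38 genes and each point is 1 library, with its repeat number beside it. Batch 1 (circles) overlaps across groups, whereas in batch 2 (squares) the refed K556R libraries lie at 1.67 to 2.23, above all others of the batch at 0.64 to 1.47.

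Batch 2 had lower means than batch 1 in fasted WT, fasted K556R and refed WT, but not in refed K556R. In a model with batch as a term, 37 of 38 members were lower in batch 2, with a median log2 difference of -0.51, and 20 passed the test at an adjusted p (Benjamini-Hochberg over all 15603 genes, edgeR quasi-likelihood) below 0.05. Of all genes tested, 22.1% passed. Bub1 fell by 1.08 on the log2 scale, Ccnb1 by 1.07, Aurkb and Cdc20 by 0.99, Ube2c by 0.92, and Top2a, the topoisomerase that untangles replicated DNA, by 0.90. All 20 were lower, and 6 of them were among the 7 spindle and kinetochore genes, against 1 (Pcna, -0.19) among the 7 replication genes. Aurka was the exception in direction, at 0.05. The contrasts below carry the batch term, and the median of the members is also given for each batch alone.

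On refeeding, 3 genes rose in K556R livers. Ccnd1, the cyclin that couples growth signals to cycle entry, and Mcm3 and Mcm4, subunits of the replicative helicase, rose and passed the test. They were the only 3 of 38 members to pass. Of all genes tested, 15.4% passed, and 6.97% passed and were higher, so 3 members called higher of 38 was near the background. In the other direction none of the 38 passed.

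Ccnd1 in batch 1 stood at 27.1, 21.1, 30.4 and 21.9 CPM in fasted K556R and at 31.8, 63.4, 56.8 and 19.6 in refed K556R. In batch 2 it stood at 24.9, 9.34 and 22.9 CPM fasted and at 63.4, 27.0, 81.5 and 41.3 refed. All 4 refed libraries of batch 2 lay above the 3 fasted ones, and in batch 1 refed replicate 4 lay below all 4 fasted libraries. The log2 change was 1.13 (SE 0.26, edgeR adjusted p = 0.00262), or 0.78 in batch 1 alone and 1.46 in batch 2 alone. Fasted WT libraries stood at 26.8, 15.1, 24.9 and 22.6 CPM in batch 1 and 18.0, 17.9, 19.2 and 17.6 in batch 2. Refed WT libraries stood at 29.2, 54.6 and 37.4 CPM in batch 1 and 16.4, 24.5 and 40.4 in batch 2. All 3 refed WT libraries of batch 1 exceeded the 4 fasted ones, while in batch 2 replicate 1 lay below them. The WT change was 0.73 (SE 0.26, adjusted p = 0.0753), which missed the threshold, or 0.87 in batch 1 and 0.58 in batch 2.

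Mcm3 in refed K556R stood at 5.77, 11.8, 11.8 and 6.22 CPM in batch 1 and 12.4, 7.62, 13.7 and 12.7 in batch 2. In fasted K556R it stood at 7.35, 7.59, 5.67 and 6.03 CPM in batch 1 and 5.87, 3.38 and 5.71 in batch 2. Batch 1 overlapped and batch 2 did not. The log2 change was 0.82 (SE 0.23, adjusted p = 0.0114), or 0.43 in batch 1 and 1.20 in batch 2. In WT it was 0.42 (SE 0.23, adjusted p = 0.288), from 8.45, 6.26, 7.14 and 5.29 CPM fasted to 5.54, 14.8 and 10.7 refed in batch 1, and from 6.29, 6.15, 4.61 and 6.04 to 3.83, 8.90 and 6.51 in batch 2.

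Mcm4, which sits beside Mcm6 and Mcm7 in the helicase core, stood in fasted K556R at 7.40, 7.39, 5.74 and 5.02 CPM in batch 1 and 6.41, 4.95 and 6.16 in batch 2. In refed K556R it stood at 8.21, 11.1, 11.7 and 5.95 CPM in batch 1 and 8.89, 5.19, 14.1 and 11.0 in batch 2. In each batch, 1 refed library fell inside the fasted range and the other 3 lay above it. The log2 change was 0.65 (SE 0.19, adjusted p = 0.0153), and the batches alone gave 0.55 and 0.73. Refed WT libraries stood at 7.31, 12.2 and 10.5 CPM in batch 1 and 4.19, 7.27 and 8.13 in batch 2, against 6.34, 5.87, 5.19 and 6.94 and then 6.76, 4.93, 4.40 and 5.70 fasted. The WT change was 0.52 (SE 0.19, adjusted p = 0.0840).

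**Figure D3:**
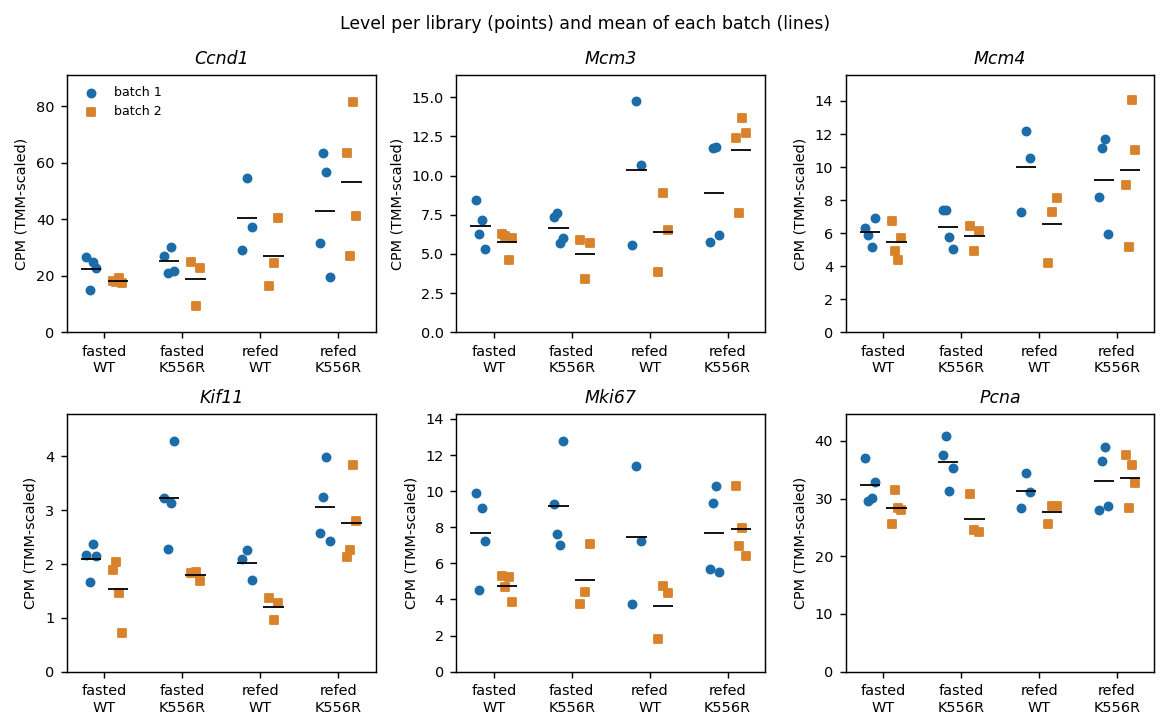
The vertical axes give TMM-scaled CPM from 0, each point is 1 library (circles batch 1, squares batch 2) and each line the mean of a batch. Ccnd1, Mcm3 and Mcm4 reach higher in refed than in fasted livers of both genotypes, with wide scatter among refed libraries. Kif11 reaches higher in K556R than in WT except in fasted livers of batch 2, and Pcna varies least.

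For these 3 genes no difference between genotypes passed the test. The difference of the refeeding change between genotypes (the interaction) was 0.40 for Mcm3 (SE 0.32), 0.40 for Ccnd1 (SE 0.37) and 0.13 for Mcm4 (SE 0.27), each with an adjusted p of 1.0. In WT livers 0 of 38 members passed the test for refeeding in edgeR, 3 had an unadjusted p below 0.05, and DESeq2 called 0. Of all genes tested, 10.7% passed in edgeR, 23.1% had an unadjusted p below 0.05 and 11.7% passed in DESeq2. Aurka, with the next smallest p after Ccnd1 and Mcm4, had a log2 value of 0.36 in WT (SE 0.15, adjusted p = 0.151), with overlapping ranges of 1.93 to 3.90 CPM fasted and 3.10 to 4.36 CPM refed. These WT counts depend on single libraries. Without refed WT batch 2 replicate 1, 2 members were called, and without both that library and refed K556R batch 1 replicate 4 the 2 called were Ccnd1 (log2 change 0.86, adjusted p = 0.0124) and Mcm4 (0.64, adjusted p = 0.0113), with 11.3% of all genes called. In K556R livers the same omission gave 5 members, adding Mcm2 and Mcm7, with 16.5% of all genes called. Both libraries were picked after seeing their low values for the members. Refed WT batch 1 replicate 1, with a mean log2 CPM of the members of 1.41, was kept. Leaving out low refed libraries raises the refeeding change by construction, so the added calls are no support for it. DESeq2 on all libraries called 15.8% of genes and the same 3 members in K556R. In batch 2 alone 8 members were called (Ccnd1, Mcm3, Mcm5, Mcm6, Rrm1, Rrm2, Tyms and Cdk1) with 12.5% of all genes, and in batch 1 alone none was. The share of all genes called in batch 1 alone is not given, so that result does not set the members apart.

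Of the 7 replication genes, all had values above 0 for refeeding in K556R, with a median of 0.58, or 0.06 with 4 of 7 above 0 in batch 1 and 1.06 with 7 of 7 in batch 2. The 4 G1 and S entry genes had a median of 0.22, or 0.26 and 0.33. The helicase subunits Mcm2 (0.58), Mcm5 (0.68) and Mcm6 (0.46) did not pass, nor did Pcna at 0.08 (SE 0.09). Mcm2 had the next smallest p, and its log2 change had an SE of 0.26 and an adjusted p of 0.145. Its CPM ran from 3.60 through a median of 8.25 to 8.65 in fasted K556R and from 4.07 through 11.6 to 16.1 in refed K556R, with overlap. Of the 7 mitotic entry genes all had values above 0, from 0.01 for Foxm1 to 0.47 for Ccna2, and none passed. The median over the 38 was 0.20, against 0.01 over all genes tested, and 35 of 38 were above 0. Many members moved together by library, so counts of members above 0, here and in the contrasts below, are not counts of independent observations. The batches alone gave -0.14 and 0.66, and without fasted K556R batch 1 replicate 4 the median was 0.32. In the same contrast cholangiocyte markers were above 0 in 5 of 5 genes (median 0.26, or -0.13 in batch 1 and 0.67 in batch 2) and stellate markers in 6 of 7 (0.13), of which Lrat rose by 0.58 (adjusted p = 0.0187). Kupffer cell and macrophage markers were above 0 in 2 of 10 (-0.07, or -0.40 in batch 1 and 0.11 in batch 2). T and NK cell markers were above 0 in 3 of 6 (-0.04, or -0.42 and -0.05). Endothelial markers were above 0 in 3 of 6 (0.04, or 0.022 and 0.085), and B and plasma cell markers in 5 of 6 (0.40, or -0.17 and 0.66). Among the B and plasma cell markers, Mzb1 fell by 1.14 (edgeR adjusted p = 0.0115). Hepatocyte markers were above 0 in 2 of 8 (-0.11), and Cyp2e1 and Hnf4a fell by 0.55 and 0.31. The part of these cells in the result was not tested. In WT the median of the 38 was -0.02 and 17 were above 0, at 0.03 in batch 1 and -0.07 in batch 2, and it ran from -0.14 to 0.07 as single libraries were left out (without refed WT batch 1 replicate 2 and fasted WT batch 1 replicate 1). Mki67, whose protein coats mitotic chromosomes, had a log2 value of -0.18 (SE 0.25) in WT and 0.19 (SE 0.24) in K556R, and Top2a of -0.05 and 0.12, all short of the threshold. Both genotype contrasts and both refeeding contrasts share groups, so they are not independent of each other.

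**Figure D4:**
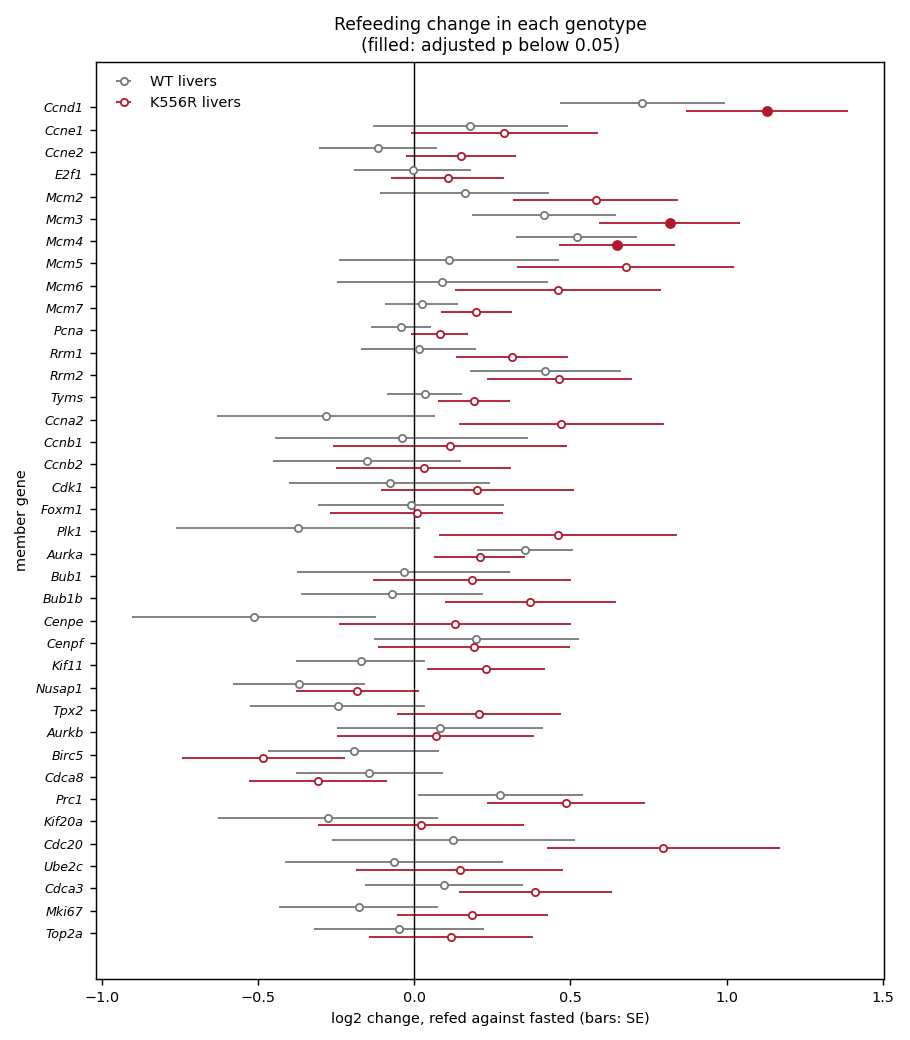
Each row is a gene, and the horizontal axis is the log2 change from fasted to refed with its SE as a bar, in WT (grey) and K556R (red) livers, all libraries with a batch term. Filled points, Ccnd1, Mcm3 and Mcm4 in K556R, passed the test, and the bars of both genotypes overlap for these 3 genes.

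The refeeding change in K556R itself differed between batches for 3 members. In a model of 8 groups (genotype, feeding and batch), the change in batch 2 exceeded that in batch 1 by 2.06 for Mcm5 (SE 0.58, adjusted p = 0.0448), by 1.96 for Cdk1 (adjusted p = 0.0385) and by 1.36 for Rrm2 (adjusted p = 0.0365). Of all genes, 3.54% passed this test. Cdk1, the kinase that starts mitosis, stood at 6.14, 3.75, 3.60 and 6.03 CPM fasted and 2.10, 4.19, 4.37 and 1.71 refed in batch 1. In batch 2 it stood at 1.46, 1.07 and 2.30 CPM fasted and 7.05, 2.77, 2.77 and 3.46 refed. In batch 1, refed replicates 1 and 4 lay below all fasted libraries, and in batch 2 all refed libraries lay above the fasted ones. Rrm2 stood at 22.7, 14.3, 15.9 and 21.8 CPM fasted and 12.4, 18.3, 21.8 and 17.3 refed in batch 1, and at 8.03, 5.80 and 6.11 fasted and 19.2, 14.8, 14.1 and 16.0 refed in batch 2. In batch 2 of WT it also stood higher refed, at 17.5, 17.9 and 8.24 CPM against 7.65, 8.70, 8.23 and 6.18. Mcm5 stood at 10.5, 11.2, 7.78 and 7.48 CPM fasted and 5.47, 10.9, 10.4 and 3.14 refed in batch 1, then 4.85, 1.97 and 3.86 fasted and 16.8, 6.15, 14.2 and 11.3 refed in batch 2. Without fasted K556R batch 2 replicate 2, 0 of the 38 passed (adjusted p = 0.169 for Mcm5, 0.149 for Cdk1 and 0.133 for Rrm2), with differences of 1.77, 1.74 and 1.27. Without refed K556R batch 1 replicate 4, 0 passed either (0.0964, 0.0864 and 0.0743), with differences of 1.82, 1.77 and 1.36. The share of all genes passing is not given for either reduced fit.

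Between genotypes, Kif11 was higher in K556R livers. Kif11 encodes the kinesin-5 motor that slides spindle microtubules apart and is needed for a bipolar spindle. It lies on chromosome 19 at 37376403 to 37421859, plus strand (mm10), and its promoter is printed above. In batch 1 fasted livers it stood at 2.16, 1.66, 2.38 and 2.15 CPM in WT and 3.23, 2.29, 3.14 and 4.29 in K556R. In batch 1 refed livers it stood at 2.10, 2.26 and 1.70 CPM in WT and 2.57, 3.25, 3.99 and 2.42 in K556R. In batch 1, K556R libraries lay above WT in the refed state without overlap, and in the fasted state with 1 K556R library below the highest WT. In batch 2 fasted livers it stood at 1.90, 2.03, 1.47 and 0.724 CPM in WT and 1.83, 1.86 and 1.68 in K556R, which overlap. There WT replicates 1 and 2 lay above all K556R libraries, and WT replicate 4 (0.724) is flagged below as far from its group. In batch 2 refed livers it stood at 1.37, 0.969 and 1.28 CPM in WT and 2.13, 2.26, 3.84 and 2.80 in K556R, with no overlap.

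Averaged over both feeding states, the Kif11 difference was 0.68 on the log2 scale (SE 0.14, edgeR adjusted p = 0.00911). It was 0.48 fasted (SE 0.19, adjusted p = 0.418) and 0.88 refed (SE 0.21, adjusted p = 0.122), and the interaction of 0.40 (SE 0.28, adjusted p = 1.0) did not pass. Kif11 was the only 1 of 38 members called in the genotype mean, where 1.24% of all genes were called and 0.628% were called higher. Over the 38 the median was 0.20 and 37 were above 0. In batch 1 alone the median was 0.04 with 24 of 38 above 0, and in batch 2 alone 0.39 with 35 of 37. The next smallest p values were those of Aurka at 0.31 (adjusted p = 0.144), Ccne2 at 0.35 (adjusted p = 0.179) and Mki67 at 0.38 (adjusted p = 0.308). Kif11 passed in 29 of 29 fits that each left out 1 library. With each batch alone the values were 0.62 and 0.72, of which neither passed (adjusted p = 0.0949 and 0.505), and without the batch term the adjusted p was 0.0512. DESeq2 called it in the mean (2.97% of all genes called) and in refed livers (adjusted p = 0.0244). Other annotated genes overlap the span of Kif11 on both strands and no source states the strand setting. Whether reads of those genes entered its counts is therefore not known. The spans of other members also overlap annotated genes, among them Ccnd1, Mcm7, Ccne2, Ccna2, Mki67, Top2a, Rrm1 and Plk1. Overlap of exons was not examined.

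In refed livers nearly all members had values above 0 for K556R against WT, and none passed the test singly. In edgeR 0 of 38 passed, 4 had an unadjusted p below 0.05, and DESeq2 called 1, Kif11. Across all genes these shares were 0.0%, 8.45% and 0.229%. Of the 38, 37 were above 0 with a median of 0.31, against a median of 0.00 and 49.6% above 0 over all genes tested. Many members moved together by library, so the 38 directions are not independent observations. The mean log2 CPM of the members had an SD of 0.36 between libraries of a group and batch. That median was 0.20 without refed WT batch 1 replicate 1 and 0.49 without refed WT batch 1 replicate 2. After Kif11 the smallest p values were for Ccne2, Ccna2 and Mki67. Ccne2, a partner of Cdk2 at S-phase entry, ran from 1.67 through a median of 2.65 to 3.05 CPM in refed WT and from 2.66 through 3.61 to 4.12 in refed K556R. Its log2 difference was 0.49 (SE 0.19, adjusted p = 0.465). Ccna2, the cyclin of S and G2, ran from 0.289 through 1.60 to 3.25 CPM in refed WT and from 1.58 through 2.76 to 5.14 in refed K556R, a difference of 0.78 (SE 0.35, adjusted p = 0.533). Mki67 stood at 3.77, 11.4 and 7.26 CPM (batch 1) and 1.81, 4.72 and 4.34 (batch 2) in refed WT. In refed K556R it stood at 5.68, 9.33, 10.3 and 5.50 CPM, then 10.3, 6.94, 7.96 and 6.40. The Mki67 groups overlapped in batch 1 and not in batch 2, and the difference was 0.56 (SE 0.26, adjusted p = 0.554). All 3 ranges overlap when the batches are pooled.

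Each batch was also fitted by itself. In batch 1 alone the median over the members was -0.04 and 15 of 38 were above 0. In batch 2 alone the median was 0.72 and 37 of 37 were above 0 (Bub1 was not in that fit). The difference between batches had a median of 0.85 over the members and was above 0 for 37 of 38, but 0 passed and 10 had an unadjusted p below 0.05, from 1.62 for Ccnb1 to 0.57 for Mcm7. Over all genes 0.0% passed and 12.6% had an unadjusted p below 0.05. Rrm2, at 0.26 in batch 1 and 0.15 in batch 2, was the 1 member that ran the other way. Without refed WT batch 2 replicate 1 and refed K556R batch 1 replicate 4, the median over both batches was 0.33 and 36 of 38 were above 0. These are 1 low library of each genotype, left out together.

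**Figure D5:**
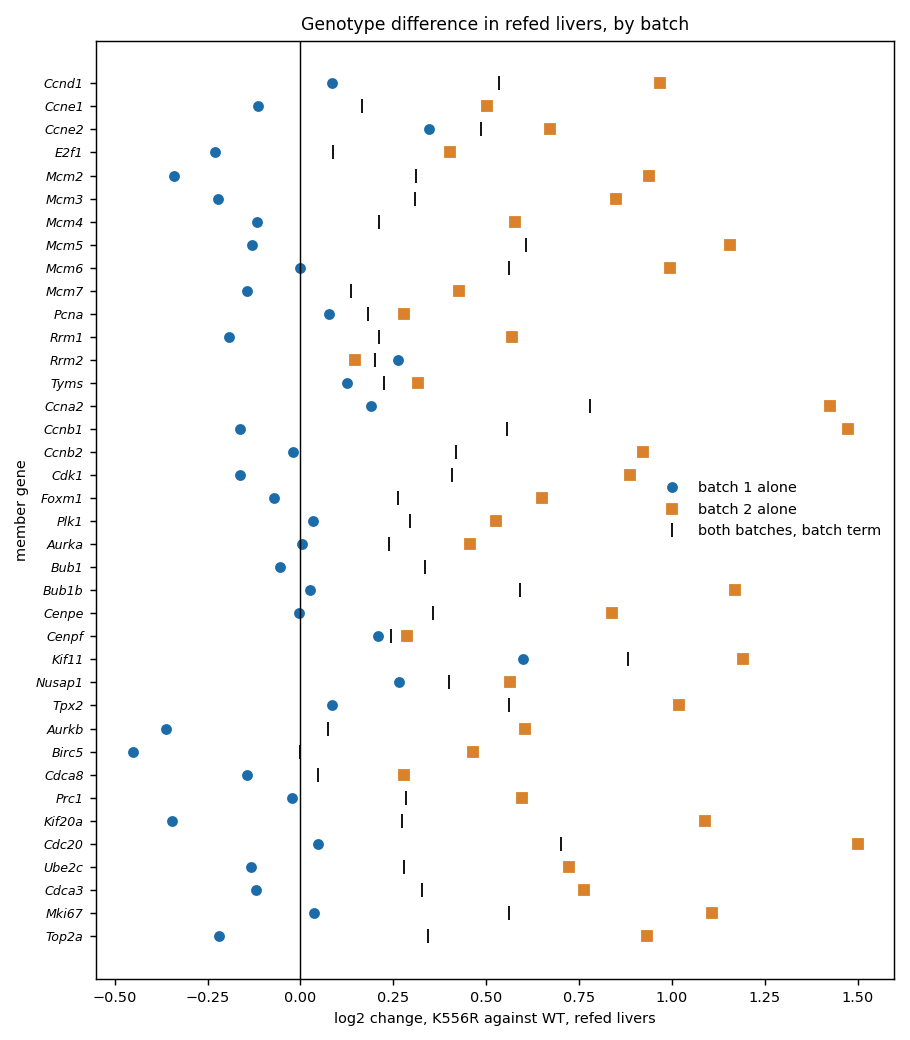
Each row is a gene, and the horizontal axis is the log2 difference of refed K556R against refed WT livers, in batch 1 alone (circles), batch 2 alone (squares) and both with a batch term (ticks). Circles scatter around 0 with a median of -0.04, squares have a median of 0.72 and are all above 0, and Kif11 is far to the right in both.

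Markers of other liver cells were read in the same contrast, and none of them passed. In refed livers, cholangiocyte markers were above 0 in 5 of 5 genes (median 0.52, or 0.16 in batch 1 and 0.73 in batch 2), Kupffer cell and macrophage markers in 10 of 10 (0.26, or -0.03 and 0.46), and stellate markers in 6 of 7 (0.22, or -0.08 and 0.51). T and NK cell markers were above 0 in 5 of 6 (0.40, or 0.37 and 1.66), at summed levels of 1.16 to 7.29 CPM in refed K556R. Endothelial markers were above 0 in 2 of 6 (-0.04, or -0.13 and 0.12), and B and plasma cell markers in 1 of 6 (-0.17, or -0.59 and 0.2). Neutrophil markers were above 0 in 2 of 3 (0.02, or -0.13 and 0.23), and erythroid markers in 0 of 4 (-0.09, or -0.19 and 0.06). Hepatocyte markers were above 0 in 1 of 8 (-0.11, or -0.11 and -0.15). In batch 2 the median was above 0 in every list but those of hepatocytes and adipocytes (1 gene, -0.53). Summed cholangiocyte markers were 42.6 to 115 CPM in refed WT and 106 to 172 in refed K556R of batch 2, against 68.8 to 125 and 58.6 to 116 in batch 1. Summed stellate markers in batch 2 were 226 to 426 CPM in refed WT and 402 to 475 in refed K556R. Refed WT batch 2 replicate 1, the library with the lowest mean of the 38 genes, also had the lowest cholangiocyte sum of all refed libraries, 42.6 CPM. Refed K556R batch 1 replicate 4 had the next lowest, 58.6 CPM. The low was not particular to cholangiocyte markers. Both libraries were also the lowest refed ones in stellate (226 and 201 CPM), B and plasma cell (2.67 and 2.81) and neutrophil sums (3.11 and 3.08). The same held for adipocyte sums (1.81 and 1.05 CPM), but not for Kupffer cell and macrophage sums (271 and 314 CPM). Hepatocyte markers were abundant in every library (summed at 63480 to 112500 CPM), and every marker gene of these lists had counts in at least 1 library. The part of these cells in the result was not tested.

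In fasted livers the genotypes were close. In edgeR 0 of 38 members passed, 2 had an unadjusted p below 0.05, and DESeq2 called 0, while over all genes these shares were 0.103%, 9.48% and 0.48%. The median over the members was 0.10 and 30 of 38 were above 0, or 0.17 with 30 of 38 in batch 1 alone and 0.03 with 20 of 37 in batch 2 alone. It moved by more than 1.5 times with single libraries: without fasted K556R it was 0.05, 0.15 and 0.04 for batch 1 replicates 1, 2 and 4 and 0.18 for batch 2 replicate 2. Without fasted WT it was 0.20 for batch 1 replicate 1 and 0.06 for batch 2 replicate 4. Aurka, the kinase that matures centrosomes, had the smallest p: it ran from 1.93 through a median of 2.88 to 3.90 CPM in WT and from 3.17 through 4.09 to 4.45 in K556R, a difference of 0.38 (SE 0.15, adjusted p = 0.397), or 0.21 in batch 1 and 0.60 in batch 2. Plk1, which drives mitotic entry, ran from 0.306 through 1.29 to 1.57 CPM in WT and from 0.225 through 0.681 to 1.69 in K556R, a difference of -0.54 (SE 0.38, adjusted p = 0.695), or -0.14 in batch 1 and -1.36 in batch 2. Both pairs of ranges overlap. Pcna, at 25.7 to 37.1 CPM in fasted WT and 24.1 to 40.9 in fasted K556R, differed by 0.06 (SE 0.09), and Top2a, at 2.17 to 8.88 and 2.20 to 9.51 CPM, by 0.17 (SE 0.26).

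The interaction of genotype and feeding passed for no member. In edgeR 0 of 38 passed and 0 had an unadjusted p below 0.05, and DESeq2 also called 0, while over all genes these shares were 0.0%, 2.82% and 0.0%. The median over the members was 0.21, at -0.19 in batch 1 and 0.85 in batch 2. With both batches fitted, the median was 0.12 without fasted WT batch 1 replicate 1 and 0.39 without refed WT batch 1 replicate 2. It was 0.35 without fasted K556R batch 1 replicate 4, and 0.33 and 0.32 without refed K556R batch 1 replicates 1 and 4. Besides Kif11 and Mcm3, the smallest p values were for Ccna2 (0.75, SE 0.48) and Plk1 (0.83, SE 0.55).

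Other genes of the cycle, 109 in lists of G1 and S control, brakes, replication factors and mitosis, changed on refeeding in both directions. Of the 106 tested, 7 rose and 7 fell in WT livers, and 13 rose and 14 fell in K556R livers, against the backgrounds of 10.7% and 15.4% given above. Of 18 brakes tested, 7 fell and 1 rose in WT, and 8 fell and 2 rose in K556R. Ccng2, an atypical cyclin linked to quiescence, fell by 0.91 in WT and by 1.11 in K556R, with SEs of 0.09. Cdkn1a, which encodes the Cdk inhibitor p21, fell by 1.62 in WT and by 1.25 in K556R, and Gadd45b by 1.39 and 1.70. Rbl2, a pocket protein of resting cells, fell by 0.42 and 0.53. Gadd45a, of the same stress family as Gadd45b, rose by 1.35 and 1.46.

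Of 18 G1 and S phase control genes tested, 4 rose and 0 fell in WT, and 3 rose and 4 fell in K556R. Of 31 replication factors tested, 1 rose and 0 fell in WT, and 5 rose and 2 fell in K556R. E2f2 rose by 1.48 in WT and by 1.88 in K556R. Rfc3, a subunit of the clamp loader, rose by 0.59 and 0.60. In K556R the licensing factors Cdc6 (1.08) and Cdt1 (1.03) rose with Pold1 (0.65), the catalytic subunit of DNA polymerase delta, while Mcm10 fell by 0.85 and E2f8, a repressor of the E2F family, by 1.16. Of 39 mitosis genes tested, 3 rose in K556R, Spc24 (0.57), Cks1b (0.66) and Cks2 (0.41), and none fell. Of all genes tested, 10.7% passed for refeeding in WT and 15.4% in K556R. In K556R 6.97% passed and were higher, so 3 of 39 mitosis genes was near the background. Between genotypes, 1 of the 106 was called in the mean of both states, where 1.24% of all genes were called. It was Ccng1, a p53-responsive cyclin, at 0.37 (edgeR adjusted p = 0.00544). In fasted or in refed livers alone edgeR called 0. In fasted livers 1 was called in 9 of 29 fits that each left out 1 library, for which shares of all genes are not given. DESeq2 called 1 in fasted livers, with 0.48% of all genes.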

How the data were processed

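The authors deposited raw counts of reads per Ensembl gene for 29 polyA libraries. Aligners and counters listed without a role in the submitters' processing notes are STAR, TopHat, HTSeq and STAR-Fusion, beside DESeq2, edgeR and the build mm10, and versions and the strand setting are not given in the sources used here. Identifiers were matched to GENCODE M21 (54495 of 54532, the other 37 holding 0.001% of counts). Library totals were 14385218 to 27278251 counts, and depth limits the precision for genes with few counts.

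edgeR 4.0.16 (R 4.3.3) was run on the deposited counts with filterByExpr (minimum count 10), TMM scaling, quasi-likelihood tests, and a model of 4 groups plus batch. It gave 15603 tested genes holding 99.92% of counts, a common biological coefficient of variation of 0.191, and Benjamini-Hochberg adjusted p-values over all tested genes, called below 0.05. SE is the log2 change divided by the root of F. CPM uses TMM-scaled totals, and log2 CPM a prior count of 2. The fit was tested on simulated data. Alternatives were DESeq2 1.42.0, other scalings, no filter, no batch term, each batch alone, a replicate block, only the groups compared, and 29 fits each without 1 library. Fits without 2 or 3 libraries with low values for the members, and the 8-group fit, were added after seeing the data. No 2 libraries of a group and batch were alike within sampling noise (lowest chi-square per degree of freedom 10.1). Repeat numbers restart within each group and batch, and nothing in the labels says that libraries came from separate animals, so the spread behind every p-value may be technical. Named with values per library were the members called in any contrast, the 4 with the smallest p in each, and Mki67, Top2a, Ccnd1 and Pcna, with Mcm5, Cdk1 and Rrm2 for the batch test. Of the other cycle genes, called genes with the smallest p per list were named, and some others after their values were seen. The members and lists were chosen with earlier results of these data known.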

Additional observations from a re-analysis of the deposited data

Results flagged for a closer look

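Of 72 checks for a library far from the rest of its group, 5 gave a value outside the usual limit, and about 1 in 20 is the share chance gives. In fasted K556R, batch 2 replicate 2 lay below the other 6 libraries for Ccnd1 (log2 CPM 3.24) and for Mcm3 (1.80). In fasted WT, batch 2 replicate 4 lay below the other 7 for Kif11 (log2 CPM -0.28). Within batch 2 alone, replicate 3 of fasted WT was low for Mcm3 (log2 CPM 2.24) and replicate 2 of refed K556R was low for Mcm3 (2.95).

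The change from fasted to refed in K556R livers differed between the batches by a test of the difference for 3 members: batch 2 exceeded batch 1 by 1.36 for Rrm2, 2.06 for Mcm5 and 1.96 for Cdk1 on the log2 scale. In batch 1 alone the changes were -0.09, -0.29 and -0.64, and in batch 2 alone 1.25, 1.74 and 1.29. None of the 3 passed without fasted K556R batch 2 replicate 2, where the differences were 1.27, 1.77 and 1.74, or without refed K556R batch 1 replicate 4, where they were 1.36, 1.82 and 1.77.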

How the results depend on the processing

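For refed K556R against WT, DESeq2 called 1, and in batch 2 alone the median over the members was 0.72. For refeeding in WT, 1 member was called in batch 2 alone and 1 with only the groups compared, 2 without 2 refed libraries and 2 without 3 libraries, and from 0 to 2 when each library was left out in turn (1 without refed K556R batch 1 replicate 4 or fasted K556R batch 2 replicate 2, and 2 without refed WT batch 2 replicate 1). For refeeding in K556R, 0 members were called in batch 1 alone, 8 in batch 2 alone (median 0.66) and 5 without 2 refed libraries, and 3 to 4 with each library left out. The refed libraries left out together were low for the members, so their omission raises refeeding changes by construction. In batch 1 alone the K556R changes of Ccnd1, Mcm3 and Mcm4 kept their direction but missed the threshold, and in batch 2 alone Mcm4 missed it (adjusted p = 0.113). For the genotype mean, 0 were called without the batch term, 0 in batch 1 alone and 0 in batch 2 alone. The interaction had a median of -0.19 in batch 1 alone and 0.85 in batch 2 alone. The number of members above 1 CPM was 36, against 14 above 1 CPM per kilobase. The cause of these changes was not tested. Each batch alone also held fewer libraries, and the part of that was not tested either. Shares of all genes called are not given for most of these fits, so their counts do not set the members apart.

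With a replicate block within batch, 3 members were called for refeeding in K556R (Ccnd1 at 1.09, Mcm3 at 0.75, Mcm4 at 0.59) and 1, Kif11 at 0.68, for the genotype mean, so it changed no call of a member. The residual correlation of 40 pairs of libraries sharing a repeat number ran from -0.39 to 0.36 with a median of -0.03, and 9 of 29 libraries matched best with their own number, so the numbers were not used for pairing.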
